A study of Homo sapiens with 9 samples.

Results

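The genes described here are 8 components and regulators of the complement system, C3, C1R, C1S, CFB, SERPING1, CD46, CD55 and CD59, together with LCN2. They were chosen by name, as the rows of the count table with these symbols, and they are 9 of the 58884 genes in the table. Expression was measured by RNA-seq in MDA-MB-231, an established claudin-low breast cancer cell line (Par), and in its in vivo selected sub-populations LM2, which colonizes the lung of mice, and BrM2, which colonizes the brain. Each line had 3 replicates, which the study's methods describe as different passages, so that there were 9 libraries in all. All of them came from cells grown alone in dishes, for 3 days in DMEM with serum and antibiotics, with no treatment and no genetic change made for the experiment. Each line is 1 sub-population, and p-values therefore measure the spread between passages of that sub-population.

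Complement is a protein cascade of blood and tissue fluid that marks surfaces for uptake and can punch pores into membranes. The classical pathway starts with C1, whose proteases are C1R and C1S, and the alternative pathway is amplified by factor B (CFB). Both cleave C3, the central component. The membrane proteins CD46, CD55 and CD59 hold the cascade back on the body's own cells, and in fluid the C1 inhibitor, SERPING1, inactivates the proteases of the classical pathway. LCN2, lipocalin 2, is not a complement protein. It is a secreted carrier of iron-binding siderophores, and like C3 and CFB it is known as a gene induced in inflammation. The liver makes most complement of the blood, but epithelial cells and fibroblasts also express many of its genes.

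The genes lie on 6 chromosomes, and 2 pairs of them lie in the same region (positions from RefSeq, GRCh38.p14). C1S (ENSG00000182326, chr12:7060718-7071032, plus strand) and C1R (ENSG00000159403, chr12:7080219-7092445, minus strand) point towards each other. CD55 (ENSG00000196352, chr1:207321678-207360966) and CD46 (ENSG00000117335, chr1:207752038-207795516) lie further apart, both on the plus strand, within a cluster of complement regulators. C3 (ENSG00000125730) lies at chr19:6677704-6720650 on the minus strand. CFB (ENSG00000243649), in the major histocompatibility complex, lies at chr6:31946095-31952084 on the plus strand. SERPING1 (ENSG00000149131, chr11:57597685-57614848, plus strand) and CD59 (ENSG00000085063, chr11:33703010-33736479, minus strand) share chromosome 11 at a distance. LCN2 (ENSG00000148346) lies at chr9:128149453-128153453 on the plus strand.

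Promoter sequences of the 250 bases before the gene start were found for 6 of the 9 genes, and 4 of them are shown, because LCN2, CFB and C1R share a short stretch and CD55 stands for the membrane regulators, which lack it. All are written 5′ to 3′ along the gene's own strand. Capitals mark CCGGGAA, the stretch shared by 3 promoters, the NF-kappa-B type motif GGGANNNNCC on either strand, and the TATA box TATAAA.
LCN2: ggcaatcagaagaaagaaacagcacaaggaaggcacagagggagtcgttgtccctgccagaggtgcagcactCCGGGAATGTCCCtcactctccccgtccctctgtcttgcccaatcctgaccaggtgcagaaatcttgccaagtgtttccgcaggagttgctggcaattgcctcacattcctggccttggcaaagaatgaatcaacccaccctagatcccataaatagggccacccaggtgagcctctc
CFB: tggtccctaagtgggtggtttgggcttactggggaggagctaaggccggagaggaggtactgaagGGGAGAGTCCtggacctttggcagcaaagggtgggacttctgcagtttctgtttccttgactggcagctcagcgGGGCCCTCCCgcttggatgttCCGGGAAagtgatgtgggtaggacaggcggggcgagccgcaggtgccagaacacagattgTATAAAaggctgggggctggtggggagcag
C1R: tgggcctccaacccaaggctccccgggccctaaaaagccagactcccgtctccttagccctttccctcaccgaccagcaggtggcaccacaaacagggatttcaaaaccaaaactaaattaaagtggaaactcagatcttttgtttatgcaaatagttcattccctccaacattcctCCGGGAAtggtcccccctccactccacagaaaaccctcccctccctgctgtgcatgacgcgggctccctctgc
CD55: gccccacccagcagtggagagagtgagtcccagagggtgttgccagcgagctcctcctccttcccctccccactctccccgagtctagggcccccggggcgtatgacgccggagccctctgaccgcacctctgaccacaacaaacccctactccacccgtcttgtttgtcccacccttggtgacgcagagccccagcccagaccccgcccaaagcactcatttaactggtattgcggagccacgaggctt
They cover chr9:128149203-128149452 for LCN2, chr6:31945845-31946094 for CFB, chr12:7092446-7092695 for C1R (minus strand) and chr1:207321428-207321677 for CD55.

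In the LCN2 promoter, the CCGGGAA stretch begins 178 bases before the start and runs into GGGAATGTCC, an NF-kappa-B type match that begins at 176 and overlaps a match on the other strand. CFB has matches of this type on both strands, GGGAGAGTCC 185 bases before the start and, on the minus strand, 111 bases before it, with CCGGGAA at 90 and TATAAA at 30. In C1R, CCGGGAA stands 73 bases before the start, and no GGGANNNNCC was found in the window. None of these 3 motifs was found in the windows of CD46, CD55 and CD59. The GC box GGGCGG was found, on the minus strand, in those of CD46 (48 and 19 bases before the start) and CD55 (46 bases). The STAT type TTCNNNGAA occurs in CFB, where it overlaps CCGGGAA, and in CD59, and the AP-1 type TGANTCA 52 bases before the start of LCN2. Of the 27305 promoters of the same length in the reference, 22.1% hold GGGANNNNCC, 42.3% GGGCGG, 11.1% TATAAA, 6.78% TTCNNNGAA, 6.6% TGANTCA and 5.3% CCGGGAA, with both strands searched. CCGGGAA was picked out after the promoters had been read. A match of letters is a description of the sequence, not a binding site.

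Libraries held between 14371858 and 24511786 counts on genes, with the fewest in BrM2 replicate 1. A filter on low counts, fitted on the agreement between replicates, kept 13055 genes, among them C3, C1R, CD46, CD55 and CD59. The other 4, C1S, CFB, SERPING1 and LCN2, had too few reads to pass, and their tests come from a fit without a filter over the 34056 genes with at least 1 count. Levels are given as CPM, counts scaled with TMM to a common library size, and differences as log2 fold changes with standard errors (SE) from edgeR's quasi-likelihood test, adjusted by Benjamini-Hochberg over all genes of the fit. In such bulk RNA, fewer expressing cells and less RNA per cell cannot be told apart. Same-numbered libraries shared deviations across lines, and replicate 1 stood apart in all 3 lines. A fit with the replicate number as a block is therefore given for the 9 genes wherever it changes a call, and for the gene lists as counts.

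Compared per length of transcript, the membrane regulators were by far the most abundant of these mRNAs. In RPKM (CPM per kilobase of exon), CD59 reached 28.8 ± 1.36 (SD, n = 3) in Par, 34.6 ± 0.942 in LM2 and 26.3 ± 2.13 in BrM2, the highest level of the 9 genes in each line. CD55 followed with 18.2 ± 3.02 RPKM in Par, 11.3 ± 1.22 in LM2 and 13.5 ± 2.2 in BrM2. CD46 stood at 15.6 ± 6.32, 12 ± 3.21 and 8.39 ± 3 RPKM in the same order. The libraries of CD55 and CD46 overlapped in Par and LM2 but not in BrM2, where CD55 ranged from 10.9 to 14.9 RPKM and CD46 from 4.92 to 10.2, so that their order is not set beyond the spread in the first pair of lines. The order of CD59 and CD55 depends on the length used. With the longest transcript in place of all exons, CD55 was above CD59 in Par (49.4 against 39.4 RPKM) and by a small margin in BrM2 (36.5 against 35.9).

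Below them came C1R, the most abundant secreted member, at 1.92 ± 0.211 RPKM in Par (SD, n = 3), 1.94 ± 0.802 in LM2 and 1.38 ± 0.208 in BrM2. The remaining 5 genes were each under 0.5 RPKM in every library. C3 averaged 0.339 RPKM in Par, 0.265 in LM2 and 0.0768 in BrM2. C1S averaged 0.137, 0.175 and 0.0901 RPKM, well below its partner protease C1R. Together, the 3 membrane regulators made up 94.07% to 97.42% of the summed RPKM of the 9 genes in every library, the other 6 genes making up the rest. Their own sum was 62.6 ± 9.87 RPKM in Par, 57.9 ± 3.4 in LM2 and 48.2 ± 5.79 in BrM2.

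**Figure D1:**
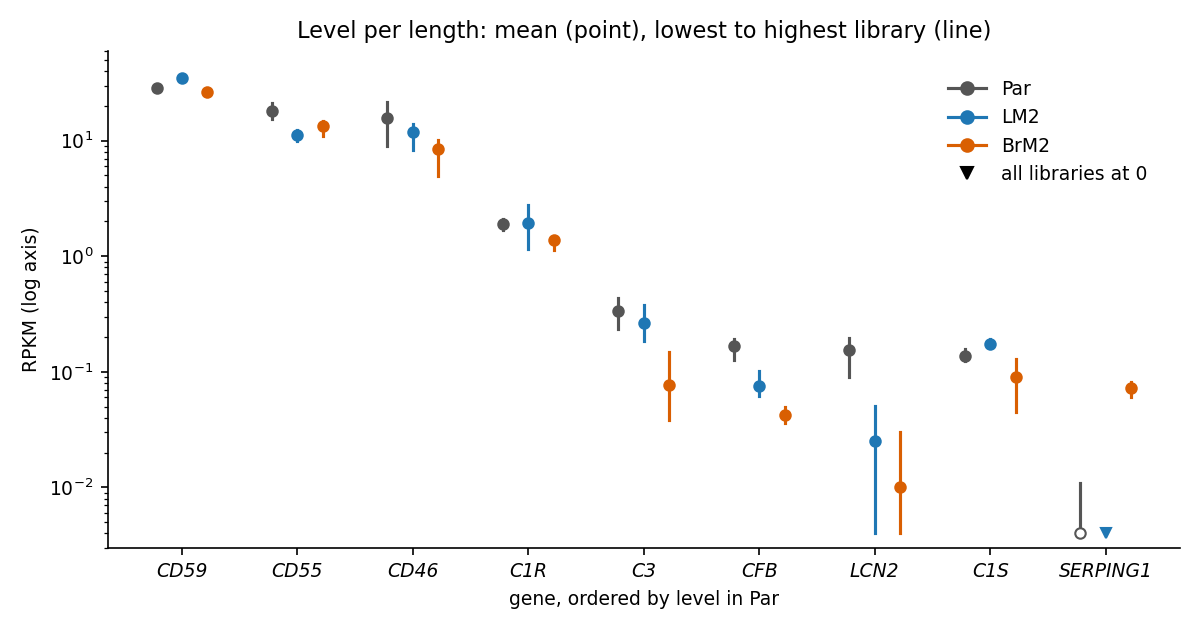
Levels of the 9 genes per length of exon, in RPKM on a log axis, ordered by their level in Par. Points are the means of 3 libraries and lines run from the lowest to the highest library. Values under 0.004 are drawn at 0.004, with an open point for the mean of SERPING1 in Par and a triangle for SERPING1 in LM2, where all libraries are at 0. CD59, CD55 and CD46 lie above 4 RPKM in every library, C1R near 1 to 3, and the other genes below 0.5.

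C3, the central component, fell in BrM2. Its level was 4.05, 2.71 and 5.03 CPM in Par replicates 1, 2 and 3 (77, 56 and 128 counts), and 4.42, 2.65 and 2.15 CPM in LM2 (89, 65 and 56 counts). BrM2 had 1.7, 0.441 and 0.527 CPM (23, 10 and 11 counts). Every BrM2 library was below every Par and every LM2 library, while Par and LM2 overlapped. From Par to BrM2 the fall was 4.63-fold, a log2 fold change of -2.21 (SE 0.54, adjusted p = 0.027 in edgeR). With 1 library omitted at a time, the call held in 5 of 9 fits, with log2 fold changes from -3.01 (without BrM2 replicate 1) to -1.86. It was lost without Par replicate 1, Par replicate 3, BrM2 replicate 2 or BrM2 replicate 3, at adjusted p of 0.067, 0.094, 0.11 and 0.12 in edgeR. Over all 18 alternative fits, those without a whole replicate number included, the call was lost in 6. The smallest fall among them was -1.64. Against LM2, C3 in BrM2 had a log2 fold change of -1.85 (SE 0.54, adjusted p = 0.078 in edgeR), which passed with the replicate block (-1.91, adjusted p = 0.0032 in edgeR). LM2 and Par differed by -0.36 (95% interval -1.47 to 0.75, adjusted p = 0.79 in edgeR). The call in BrM2 rests on 10 to 23 counts a library, and 11% of the 50-base stretches of C3 transcripts also occur in other genes. C3 passed the filter through libraries of Par and LM2, not of BrM2.

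CFB, the protease of the alternative pathway, fell in BrM2 against Par, with LM2 at levels in between. Par had 19, 21 and 17 counts (0.998, 1.02 and 0.668 CPM), LM2 had 7, 8 and 14 counts (0.348, 0.326 and 0.536 CPM), and BrM2 had 3, 6 and 4 counts (0.221, 0.265 and 0.192 CPM). No libraries of different lines overlapped. Over the summed counts, Par was 3.84-fold above BrM2 (57 against 13 counts, 95% counting interval 2.08 to 7.65) and 2.13-fold above LM2 (57 against 29 counts, 1.34 to 3.46). Between BrM2 and Par the log2 fold change was -1.94 (SE 0.55, adjusted p = 0.023 in edgeR without a filter). It passed in 5 of 9 fits with 1 library omitted, and was lost without Par replicate 1 (0.063), Par replicate 2 (0.098), BrM2 replicate 2 (0.057) or BrM2 replicate 3 (0.12), each an adjusted p in edgeR. Over all 16 alternative fits, the call of CFB was lost in 6. LM2 differed from Par by -1.12 (SE 0.49, adjusted p = 0.31 in edgeR), and BrM2 from LM2 by -0.82 (0.58, adjusted p = 0.63). Of the 50-base stretches of CFB, 36.7% also occur in the overlapping readthrough gene ENSG00000244255, which had 0 counts in all libraries. These 0 counts do not show how reads from the shared stretches were assigned. CFB also shares 24 exon bases with C2 on the same strand.

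LCN2 was at the edge of detection. Par had 6, 3 and 7 counts (0.315, 0.145 and 0.275 CPM), LM2 had 0, 2 and 1 counts, and BrM2 had 0, 0 and 1 counts. All Par libraries lay above all libraries of the other lines. The summed counts of 16 in Par and 3 in LM2 gave a ratio of 5.79 (95% counting interval 1.66 to 31), and those of 16 and 1 in Par and BrM2 a ratio of 14 (2.18 to 588). Neither comparison passed, with adjusted p of 0.27 for LM2 and 0.096 for BrM2 in edgeR without a filter. LM2 and BrM2 were both at or under the floor of 3 counts over a line, and no fold is given between them. No 50-base stretch of LCN2 is shared with another gene. The interval covers counting error alone.

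Neither protease of C1 passed the test in any comparison without the replicate block. C1R, which activates C1S, had 9.3, 7.94 and 9.86 CPM in Par (177, 164 and 251 counts), 13, 8.98 and 5.44 CPM in LM2 (261, 220 and 142 counts) and 7.01, 5.34 and 7.05 CPM in BrM2 (95, 121 and 147 counts). All BrM2 libraries were below all Par libraries, whereas LM2 overlapped both, with its replicate 1 the highest of the 9 libraries. The log2 fold change was 0.01 in LM2 vs Par (95% interval -0.69 to 0.72, adjusted p = 0.99 in edgeR). In BrM2 vs Par it was -0.48 (-1.20 to 0.23, adjusted p = 0.42 in edgeR) and in BrM2 vs LM2 -0.50 (-1.21 to 0.22, adjusted p = 0.44 in edgeR). C1R shares 672 exon bases on the same strand and 12.4% of its 50-base stretches with C1RL, and the division of reads between both genes is uncertain to that extent.

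C1S, the protease that cleaves C4 and C2, had 25, 22 and 26 counts in Par (1.31, 1.06 and 1.02 CPM), 32, 35 and 35 counts in LM2 (1.59, 1.43 and 1.34 CPM), and 5, 24 and 17 counts in BrM2 (0.369, 1.06 and 0.815 CPM). LM2 was above Par and above BrM2 without overlap, and BrM2 replicate 1, the shallowest library, was the lowest. The ratio of LM2 to BrM2 over summed counts was 1.79 (102 against 46 counts, 95% counting interval 1.25 to 2.59). Its log2 fold change in BrM2 vs LM2 was -0.91 (SE 0.44, adjusted p = 0.36 in edgeR without a filter), and with the replicate block it passed (-0.89, adjusted p = 0.035 in edgeR). The difference was 0.37 in LM2 vs Par (SE 0.42, adjusted p = 0.74 in edgeR) and -0.55 in BrM2 vs Par (0.44, adjusted p = 0.65). In each replicate number C1S was higher in LM2 than in Par, and C1R was so in 2 of 3.

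SERPING1, the serpin that inactivates C1R and C1S, rose in BrM2, where C3 and CFB fell. BrM2 libraries had 8, 10 and 11 counts (0.591, 0.441 and 0.527 CPM), those of Par 0, 0 and 2 counts, and those of LM2 0, 0 and 0. Every BrM2 library was above all others. The summed 29 counts in BrM2 against 2 in Par gave a ratio of 16.6 (95% counting interval 4.19 to 143). LM2 had 0 counts, and against a floor of 3 counts over that line SERPING1 was 12-fold higher in BrM2. The lower limit of the 95% counting interval for BrM2 over the 0 counts of LM2 was 9.14-fold. Both differences passed the edgeR test without a filter, with adjusted p of 0.008 against Par and 0.00096 against LM2, and did so in all 9 fits with 1 library omitted. Both Par counts came from replicate 3. The fitted log2 fold change against Par was 3.86, and 3.39 to 6.45 with 1 library omitted, the highest without Par replicate 3, where Par was at 0 and the value is no bound. Without replicate 2 of all 3 lines, the adjusted p against Par was 0.14 in edgeR. At 0.0719 RPKM in BrM2, the mRNA of this inhibitor was still lower per length than that of C1R in the same line. Par and LM2 were both at or under the floor, and no fold is given between them. Of the 50-base stretches of SERPING1, 2.98% also occur in other genes, 291 in number.

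**Figure D2:**
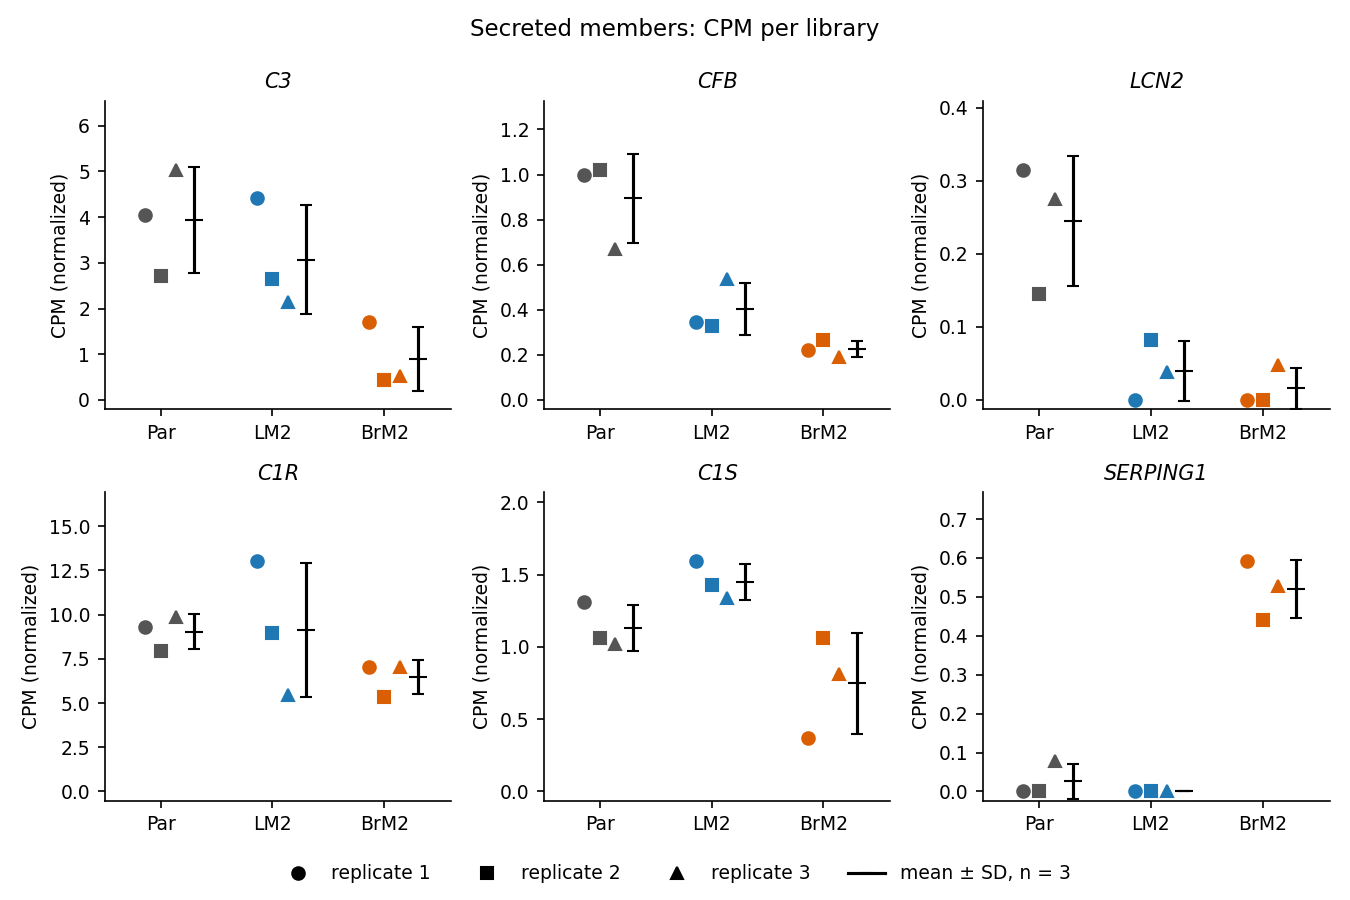
CPM of the 6 secreted members in each library, by line, with a marker shape for each replicate number and bars for the mean ± SD of 3 libraries. C3 and CFB are lowest in the 3 BrM2 libraries, LCN2 is highest in the 3 Par libraries, and SERPING1 is between 0.441 and 0.591 CPM in BrM2 and at most 0.0786 CPM elsewhere.

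The membrane regulators differed by smaller amounts, and none of them passed the edgeR test without the replicate block. CD46, the cofactor for cleavage of C3b and C4b by factor I, had 139, 251 and 334 CPM in Par, 129, 216 and 215 CPM in LM2 and 76.3, 156 and 158 CPM in BrM2. Replicate 1 was the lowest in each line, and the lines overlapped, yet within each replicate number the order was Par, LM2, BrM2 from high to low. BrM2 differed from Par by a log2 fold change of -0.89 (SE 0.39, adjusted p = 0.2 in edgeR), which passed with the replicate block (-0.88, adjusted p = 3e-04 in edgeR). Between BrM2 and LM2 it was -0.52 (0.39, adjusted p = 0.53), and with the block -0.56 (adjusted p = 0.0063 in edgeR). For LM2 vs Par it was -0.37 (95% interval -1.25 to 0.51, adjusted p = 0.71 in edgeR), and 0.074 was the adjusted p with the block. CD46 overlaps 797 exon bases of MIR29B2CHG on the opposite strand, a gene with a mean of 94 counts, and the counted strand is not given in the sources used here.

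CD55, decay-accelerating factor, which takes C3 and C5 convertases apart, had 157, 185 and 218 CPM in Par, 102, 117 and 127 CPM in LM2 and 112, 153 and 149 CPM in BrM2. Par was above LM2 and above BrM2 without overlap, and BrM2 was above LM2 in each replicate number. In LM2 vs Par the log2 fold change was -0.69 (SE 0.20, adjusted p = 0.072 in edgeR). It passed with the replicate block (-0.69, adjusted p = 0.00078 in edgeR) and in DESeq2 (-0.66, adjusted p = 0.013). BrM2 differed from Par by -0.43 (0.20, adjusted p = 0.22 in edgeR), and with the block by the same amount at an adjusted p of 0.0086 in edgeR. Between BrM2 and LM2 the difference was 0.26 (95% interval -0.19 to 0.72, adjusted p = 0.55 in edgeR).

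CD59, which blocks the assembly of the membrane attack complex, had the smallest SD of the 3 membrane regulators in each line. Its levels were 307, 289 and 317 CPM in Par, 376, 360 and 359 CPM in LM2 and 276, 301 and 256 CPM in BrM2. All LM2 libraries were above all others, and those of Par and BrM2 overlapped. CD59 was lower in BrM2 than in LM2 by a log2 fold change of -0.40 (SE 0.15, adjusted p = 0.16 in edgeR), which passed with the replicate block (adjusted p = 0.017 in edgeR) and in DESeq2 (adjusted p = 0.032). LM2 vs Par gave 0.26 (95% interval -0.07 to 0.59, adjusted p = 0.38 in edgeR), and BrM2 vs Par -0.13 (-0.46 to 0.20, adjusted p = 0.67 in edgeR). In LM2, CD55 and CD59 thus stood on opposite sides of their Par levels in all 3 replicate numbers, but neither difference passed in edgeR without the block. Both proteins are held in the membrane by a GPI anchor.

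**Figure D3:**
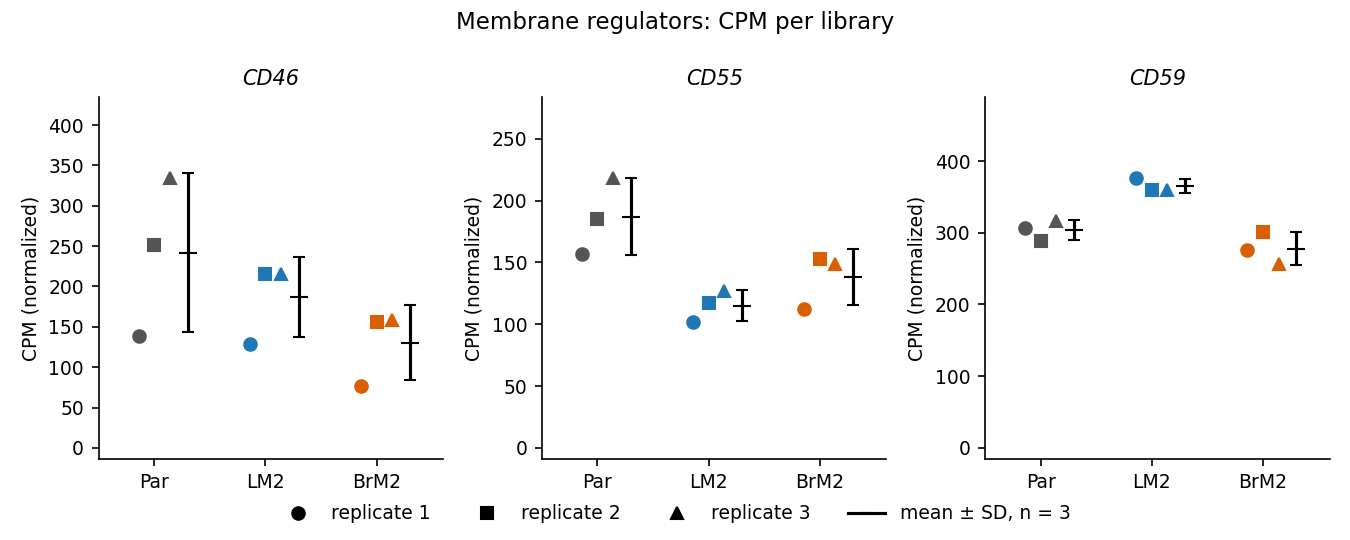
CPM of the 3 membrane regulators in each library, by line, with a marker shape for each replicate number and bars for the mean ± SD of 3 libraries. CD46 is lowest in replicate 1 of every line, CD55 is highest in the Par libraries and CD59 is highest in the LM2 libraries.

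Replicate 1 differed from the other replicates in a gene-specific way. Replicate 1 minus the mean of replicates 2 and 3, on the log2 scale, was for CD46 -1.06 in Par, -0.74 in LM2 and -1.04 in BrM2. For CD55 these values were -0.36, -0.25 and -0.43, and for CD59 0.02, 0.07 and -0.01. In C3 they were 0.13, 0.86 and 1.64 and in C1R 0.07, 0.88 and 0.19. Replicate 1 was thus below that mean for CD46 and CD55 in every line, and above it for C3 and C1R. For these last genes the margin in Par was small, with replicate 3 above replicate 1 (C3 5.03 against 4.05 CPM, C1R 9.86 against 9.3). C1R in BrM2 also had replicate 3 above replicate 1, at 7.05 against 7.01 CPM. The transcripts of these genes have a GC content of 37.5% for CD46, 42.4% for CD55, 47.1% for CD59, 54.6% for C3 and 54.7% for C1R. The part of GC content in these differences was not tested.

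Over the 5 genes past the filter, 0 passed in LM2 vs Par, where 8.69% of all tested genes did. With an unadjusted p under 0.05 there was 1, and DESeq2 called 1, in both cases CD55. In BrM2 vs Par 1 of the 5 was called, C3, against 13.3% of all genes. In BrM2 vs LM2 it was 0 of 5 against 8.1%, with 2 at an unadjusted p under 0.05 and 2 called by DESeq2, C3 and CD59. With the replicate block the counts were 1, 3 and 3, all lower, against 34.5%, 42.7% and 37.5% of all genes. Libraries did not overlap for 1 gene higher and 1 lower in LM2 vs Par (25.2% of all genes in either direction), for 3 lower in BrM2 vs Par (31.3%) and for 2 lower in BrM2 vs LM2 (23.1%). The median log2 fold changes of the 5 were -0.36, -0.48 and -0.50, beside 0.01, -0.02 and -0.03 over all genes. In the fit without a filter, 0 of the other 4 were called in LM2 vs Par, where 4.4% of all genes were. The unadjusted p was under 0.05 for CFB and LCN2, and DESeq2 called 0. In BrM2 vs Par 2 of the 4 were called, CFB and SERPING1, against 6.36%, and in BrM2 vs LM2 1, SERPING1, against 4.25%. With the replicate block their counts were 0, 2 and 2, against 15.5%, 19% and 16.7% of all genes. Both comparisons with Par share the Par libraries.

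**Figure D4:**
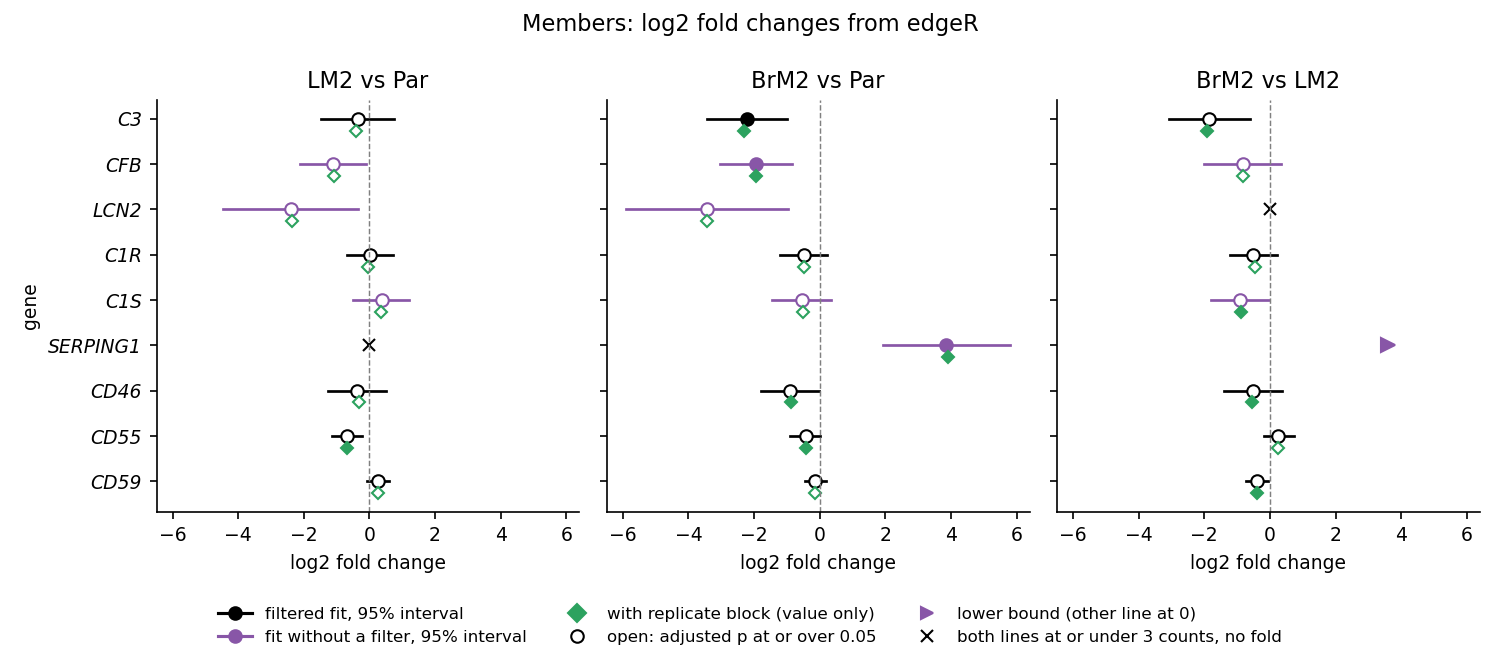
Log2 fold changes of the 9 genes in the 3 comparisons from edgeR, with 95% intervals. Black marks the fit with the filter, purple the fit without it, and green diamonds the fit with the replicate block. Filled symbols have an adjusted p under 0.05. The arrow, marked as a lower bound, shows SERPING1 in BrM2 vs LM2 with LM2 set at 3 counts, and leaves out the counting error of BrM2. Crosses stand where both lines are at or under 3 counts. C3 and CFB pass below 0 and SERPING1 above 0 in BrM2 vs Par.

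Across the 9 libraries, the log2 CPM of C3 and C1R had a Pearson correlation of 0.74 and those of CD46 and CD55 of 0.67, while CD55 and CD59 had -0.40. These points share the lines and the replicate numbers, so that the values are descriptions. The genes with the pattern most like that of C3 were NHLRC1 (0.969) and IDNK (0.962), and for C1R they were CREB3L4 (0.947) and AGER (0.939). CD46 was followed most closely by ENSG00000237440 (0.988) and LZTFL1 (0.985), CD55 by GABRE (0.977) and ATP10D (0.974), and CD59 by PPP6C (0.958) and CCL28 (0.957), each over 9 libraries and with a mean of at least 50 counts. None of these 10 is a complement gene.

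The nearest tested genes on the chromosome include other complement genes, and differences between neighbours were not tested. CD55 and CD46 are the nearest members to each other on chromosome 1, with log2 fold changes of -0.43 and -0.89 in BrM2 vs Par. C1RL, a C1R-like protease next to C1R, fell in BrM2 against Par by a log2 fold change of -1.62 (adjusted p = 0.0015 in edgeR), where C1R had -0.48. In LM2 vs Par, C1RL had -0.79 (adjusted p = 0.051 in edgeR, and 0.0078 with the block). C4BPB, the beta chain of C4b-binding protein, next to CD55, fell in LM2 with a log2 fold change of -2.77 (adjusted p = 0.00042 in edgeR) and was at the Par level in BrM2 (0.08, adjusted p = 0.91). The neighbours of C3, TNFSF9 and GPR108, had -0.50 and 0.12 in BrM2 vs Par, and those of CFB, ZBTB12 and NELFE, 0.70 and -0.16. CLP1, next to SERPING1, was higher in BrM2 than in Par by 0.69 (adjusted p = 0.047 in edgeR), and UBE2L6 on its other side had 0.31 (adjusted p = 0.74). For C1S it was LPCAT3 (-0.10), for LCN2 PTGES2 (-0.08) and CIZ1 (-0.31), for CD59 HIPK3 (-0.03) and FBXO3 (0.10), and for CD46 MIR29B2CHG (-1.23), all in BrM2 vs Par and none of them past the threshold without the block. Within 500 kb, the 15 tested genes around C3 had a median of 0.12 in BrM2 vs Par, with 1 called higher, the 36 around CFB 0.04, with 3 called lower, and the 12 around SERPING1 0.32, with 1 called higher. That median was -0.28 around C1R (28 genes) and around C1S (30). It was -0.25 around CD46 (4 genes), -0.35 around CD55 (8), 0.19 around CD59 (6) and -0.38 around LCN2 (25). In LM2 vs Par, the genes around CD55 had a median of -0.66, with 1 called lower, and CD55 itself had -0.69. Those around LCN2 had -0.60 in BrM2 vs LM2, with 3 called lower. Whether members moved with their stretch of chromosome was not tested.

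Of the other components of the cascade, several fell in BrM2 against Par and none was called higher there. Of 25 listed genes, 9 had 0 counts in every library, among them C1QA, C1QB and C1QC, which encode the recognition part of C1, as well as C6, C8A and C8B of the membrane attack complex. The 4 past the filter were C1RL, C5, CFP and MASP2. In LM2 vs Par 1 of them fell, CFP, and in BrM2 vs Par 2 fell, CFP and C1RL, with 0 called in BrM2 vs LM2 by edgeR (2 at an unadjusted p under 0.05 and 2 in DESeq2). With the replicate block 2, 3 and 2 were called, all lower. Among all tested genes, 8.69%, 13.3% and 8.1% were called without the block and 34.5%, 42.7% and 37.5% with it. CFP, properdin, which stabilizes the alternative C3 convertase, went from 5.85 ± 1.03 CPM (SD, n = 3) in Par to 0.368 ± 0.257 in LM2 and 0.245 ± 0.115 in BrM2. Its log2 fold changes were -3.97 (SE 0.48, adjusted p = 0.0013 in edgeR) and -4.62 (0.52, adjusted p = 0.00063 in edgeR). C5, the source of the anaphylatoxin C5a, had 10.6 ± 5.04, 8.97 ± 4.39 and 2.79 ± 1.54 CPM. In BrM2 vs Par its log2 fold change was -1.91 (SE 0.61, adjusted p = 0.077 in edgeR, and 8.6e-06 with the replicate block), and in BrM2 vs LM2 it was -1.67 (adjusted p = 0.15 in edgeR, and 3.8e-05 with the block). MASP2, a protease of the lectin pathway, had 1.55 ± 0.368, 1.65 ± 1.09 and 1.09 ± 0.692 CPM and was not called in any comparison.

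Without the filter, 16 of the 25 had counts, and 3 were called lower in LM2 and 6 lower in BrM2 than in Par, where 4.4% and 6.36% of all genes were called in either direction. Those that were not yet named were picked out after their values were seen. C2, the classical counterpart of CFB and its neighbour on chromosome 6, had 39, 32 and 30 counts in Par, 5, 8 and 6 in LM2 and 2, 1 and 1 in BrM2, without overlap between lines. Its log2 fold change was -2.53 in LM2 (adjusted p = 0.00087 in edgeR without a filter), and in BrM2 -4.36 (adjusted p = 5.7e-06). CFD, the protease that cleaves CFB, had 11, 20 and 23 counts in Par, 15, 11 and 13 in LM2 and 1, 8 and 3 in BrM2 (-1.97 in BrM2 vs Par, adjusted p = 0.032 in edgeR). C4B had 13, 13 and 16 counts in Par and 1, 1 and 2 in BrM2 (-3.10, adjusted p = 0.0074 in edgeR), but its near-identical copy C4A, with 21, 16 and 26 counts in Par and 9, 11 and 8 in BrM2, did not pass, and the split of reads between the copies is uncertain. COLEC12, a scavenger receptor with a collectin domain, had 6, 15 and 16 counts in Par, 0 in all LM2 libraries and 15, 8 and 14 in BrM2, and passed against LM2 on both sides (adjusted p = 0.00014 for Par and 6.1e-05 for BrM2 in edgeR).

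**Figure D5:**
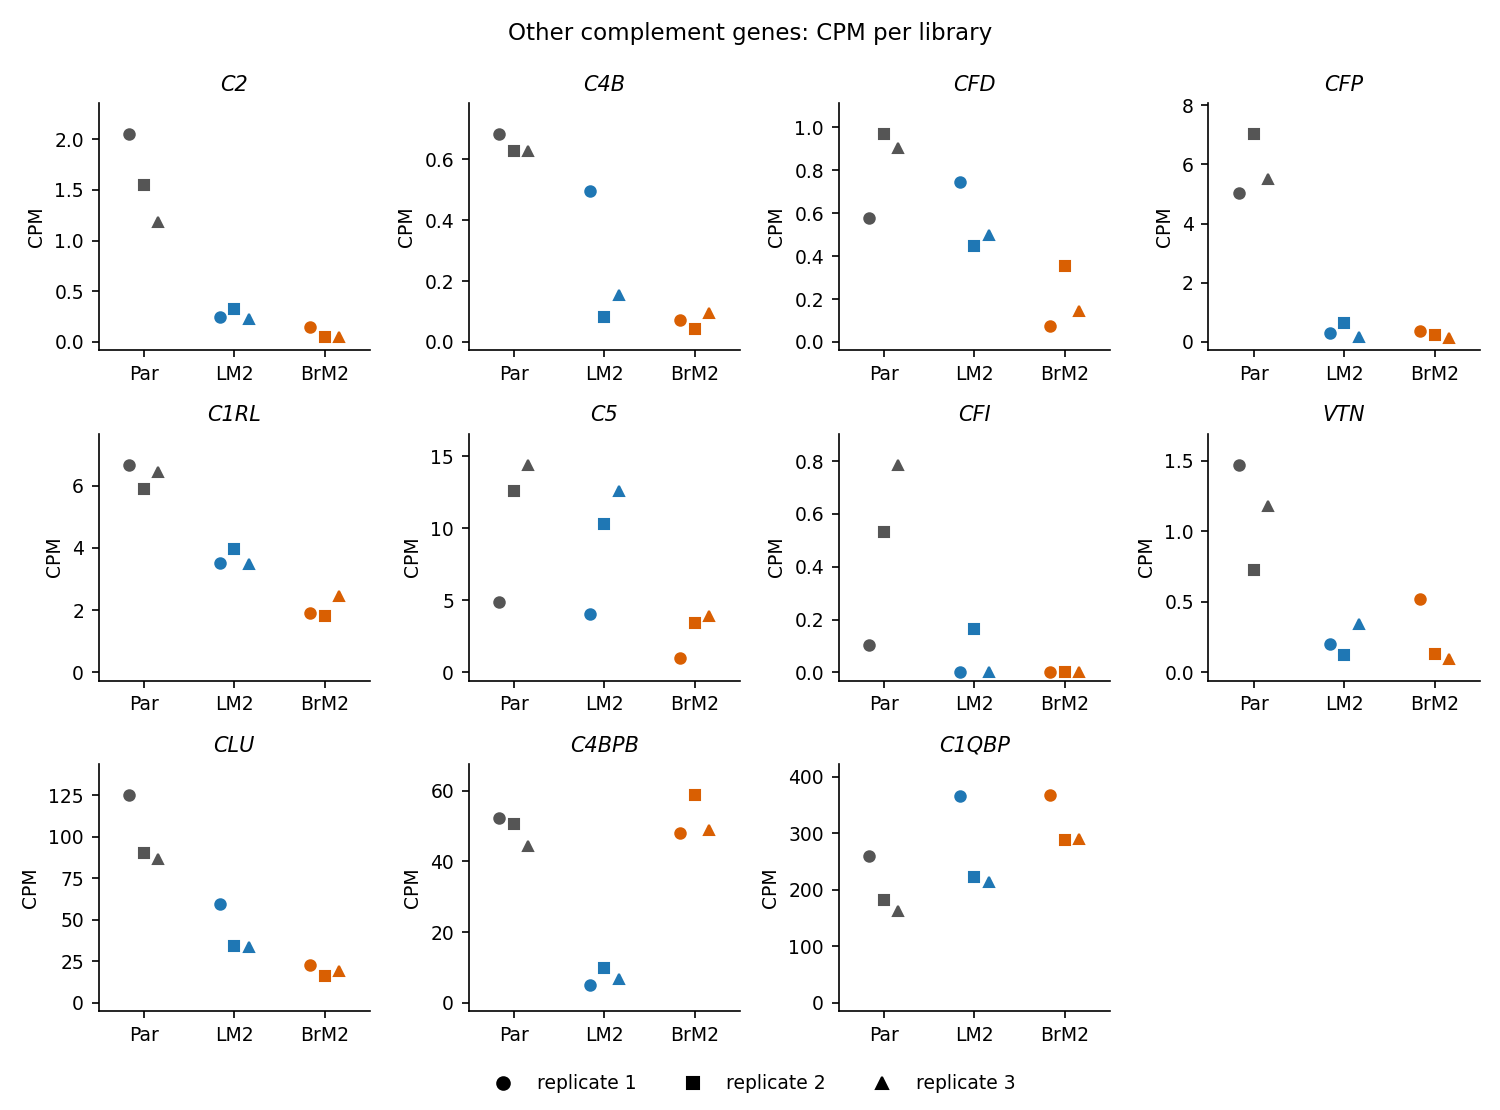
CPM of 11 other complement genes in each library, by line, with a marker shape for each replicate number. C2, C1RL, CFP, CLU and VTN are highest in the 3 Par libraries, C4BPB is low in the 3 LM2 libraries, and C5 is lowest in replicate 1 of Par, LM2 and BrM2.

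Among 21 other regulators, 6 passed the filter, of which 2 fell in LM2 vs Par, 1 rose and 1 fell in BrM2 vs Par, and 2 were higher and 1 lower in BrM2 than in LM2. Fitted with the block, 4, 3 and 4 were called. The shares of all tested genes called were 8.69%, 13.3% and 8.1%, and with the block 34.5%, 42.7% and 37.5%. CLU, clusterin, a fluid-phase inhibitor of the membrane attack complex, fell from 101 ± 21 CPM in Par (SD, n = 3) to 42.5 ± 14.8 in LM2 and 19.5 ± 3.25 in BrM2. The log2 fold changes were -1.24 (SE 0.28, adjusted p = 0.027 in edgeR) and -2.37 (0.29, adjusted p = 0.00096 in edgeR). C4BPB stood at 49.2 ± 4.14 CPM in Par, 7.22 ± 2.43 in LM2 and 51.9 ± 5.85 in BrM2, while the alpha chain that carries most of the function, C4BPA, had at most 1 count. CSMD1, a large membrane protein with complement control domains, had 0 counts in Par and LM2 and 39, 42 and 48 counts in BrM2 (2.34 ± 0.514 CPM). It passed the filter through BrM2 alone, the line where it was high. Its adjusted p of 0.0026 against Par and 0.0037 against LM2 in edgeR carry that selection. C1QBP, a mitochondrial protein that can bind C1q, had 202 ± 51.5, 267 ± 85.4 and 315 ± 45 CPM. It did not pass the threshold in any comparison without the block, with which it passed in LM2 vs Par (adjusted p = 0.025 in edgeR) and BrM2 vs Par (0.001). In the fit without a filter, VTN, vitronectin, had 28, 15 and 30 counts in Par, 4, 3 and 9 in LM2 and 7, 3 and 2 in BrM2, with log2 fold changes of -2.30 and -2.31 against Par (adjusted p = 0.012 for both in edgeR). CFI, the protease for which CD46 is a cofactor, had 2, 11 and 20 counts in Par, 0, 4 and 0 in LM2 and 0 in all BrM2 libraries (adjusted p = 0.0043 for BrM2 vs Par in edgeR). In LM2 vs Par its adjusted p was 0.065 in edgeR, and 0.0045 with the block. VTN and CFI were chosen after their values were seen.

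Of 8 complement receptors, ITGB2, the beta chain of CR3 and CR4, was the one past the filter. It rose from 7.63 ± 0.979 CPM in Par (SD, n = 3) and 7.32 ± 4.06 in LM2 to 40.5 ± 16.7 in BrM2, by a log2 fold change of 2.41 against Par (SE 0.44, adjusted p = 0.0067 in edgeR) and 2.47 against LM2 (adjusted p = 0.0088 in edgeR). Its alpha chains for complement, ITGAM and ITGAX, had at most 7 and 1 counts. The receptors for C3a and C5a, C3AR1, C5AR1 and C5AR2, had at most 22, 9 and 5 counts.

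Acute-phase genes, known like C3, CFB and LCN2 for induction in inflammation, moved in both directions in BrM2. Of 17 listed, 4 passed the filter. In LM2 vs Par 3 fell, in BrM2 vs Par 1 rose and 2 fell, and in BrM2 vs LM2 2 were higher and 1 lower. The block gave 4, 3 and 4 calls. Beside them, 8.69%, 13.3% and 8.1% of all tested genes were called without the block, and 34.5%, 42.7% and 37.5% with it. SERPINA1, alpha-1-antitrypsin, had 51 ± 11.2 CPM in Par (SD, n = 3), 8.82 ± 3.92 in LM2 and 0.643 ± 0.278 in BrM2. Its log2 fold changes against Par were -2.53 in LM2 (SE 0.38, adjusted p = 0.004 in edgeR) and -6.35 in BrM2 (0.48, adjusted p = 0.00011 in edgeR). SAA1, serum amyloid A, was at 36.8 ± 19.1, 6.31 ± 3.51 and 26.2 ± 5.04 CPM and fell in LM2 alone (-2.54, adjusted p = 0.011 in edgeR; in BrM2 -0.49, adjusted p = 0.59), with BrM2 above LM2 by 2.06 (adjusted p = 0.028). SAA2 fell in both, with -3.38 and -1.99 (adjusted p = 0.0018 and 0.012 in edgeR), and since SAA1 and SAA2 are near-identical their split is uncertain. PTX3, a pentraxin that binds C1q, rose instead, from 25.4 ± 2.96 CPM in Par to 83.8 ± 18.7 in BrM2 (log2 fold change 1.72, SE 0.23, adjusted p = 0.0015 in edgeR), and LM2 lay between them at 40 ± 5.82 CPM (0.65 against Par, adjusted p = 0.13 in edgeR, and 0.0018 with the block). HPX, hemopexin, and A2M, alpha-2-macroglobulin, were under the filter with at most 9 and 8 counts.

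Of 12 genes for partners of LCN2 and for iron handling, 7 passed the filter, and 1 fell in each comparison with Par, with 0 called in BrM2 vs LM2 by edgeR (1 at an unadjusted p under 0.05, 1 in DESeq2 and 3 with the block). Shares over all tested genes were 8.69% in LM2 vs Par, 13.3% in BrM2 vs Par and 8.1% in BrM2 vs LM2. With the block they were 34.5%, 42.7% and 37.5%. The gene that fell against Par was SLC40A1, ferroportin, the exporter of iron, at 14.3 ± 0.871 CPM in Par (SD, n = 3), 4.87 ± 1.42 in LM2 and 2.44 ± 0.644 in BrM2. The log2 fold changes were -1.56 (SE 0.29, adjusted p = 0.011 in edgeR) and -2.54 (0.31, adjusted p = 0.00084 in edgeR). FTL, ferritin light chain, at 1670 ± 748, 2360 ± 1490 and 1320 ± 380 CPM, and TFRC, the transferrin receptor, at 475 ± 78.9, 536 ± 142 and 593 ± 207 CPM, did not pass in any comparison without the block, with which FTL passed in BrM2 vs LM2 (-0.84, adjusted p = 0.0053 in edgeR). SLC22A17, a receptor for LCN2, had 0 counts throughout. LRP2, on the same list, had 1, 0 and 1 counts in Par, 2, 2 and 2 in LM2 and 4, 11 and 7 in BrM2. In BrM2 vs Par its log2 fold change was 3.40 (SE 0.94, adjusted p = 0.02 in edgeR without a filter). LRP2 was chosen after its values were seen. MMP9, which LCN2 binds, had at most 1 count in Par and LM2 libraries and 5, 10 and 13 in BrM2 (adjusted p = 0.0034 against Par in edgeR without a filter), a gene chosen after its values were seen.

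CD55 and CD59 need a GPI anchor, and 25 of 26 listed genes for its synthesis and transfer passed the filter. Of them, 1 rose and 1 fell in LM2 vs Par, 1 rose and 2 fell in BrM2 vs Par, and 0 were called in BrM2 vs LM2 by edgeR (3 at an unadjusted p under 0.05 and 1 in DESeq2). Over all tested genes the shares called were 8.69%, 13.3% and 8.1%. With the replicate block 9, 9 and 5 were called, where 34.5%, 42.7% and 37.5% of all genes were. The median log2 fold changes were -0.06, 0.03 and -0.03. PIGZ, a mannosyltransferase for a side branch of the anchor, fell from 3.85 ± 1.17 CPM in Par (SD, n = 3) to 1.24 ± 0.527 in LM2 and 0.424 ± 0.0237 in BrM2, with log2 fold changes of -1.64 (adjusted p = 0.029 in edgeR) and -3.17 (adjusted p = 0.0015). PIGW, which acylates the inositol of the anchor, rose from 20.7 ± 2.71 CPM to 35.9 ± 5.53 and 36.9 ± 5.51, by 0.79 (adjusted p = 0.049 in edgeR) and 0.83 (adjusted p = 0.03). PIGG, which modifies the anchor with ethanolamine phosphate, fell in BrM2 vs Par with a log2 fold change of -0.67 (adjusted p = 0.03 in edgeR). PIGT, at 217 to 265 CPM, was the most abundant and did not pass. Neither did PIGS, at 111 ± 27.6, 105 ± 41.8 and 89.2 ± 17.9 CPM. Both belong to the enzyme complex that attaches the anchor to proteins.

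Marker lists of other cell types were measured beside these genes. Among the epithelial markers, the keratin KRT8 stood at 853 ± 303 CPM in Par, 517 ± 305 in LM2 and 509 ± 249 in BrM2 (SD, n = 3), and KRT18 at 432 ± 197, 428 ± 248 and 410 ± 143 CPM. KRT8 did not pass without the block, with which it passed against Par in LM2 (adjusted p = 0.0049 in edgeR) and BrM2 (0.0047). KRT19, another epithelial keratin, had 206 ± 41.9, 45.5 ± 23.8 and 191 ± 89.8 CPM, and fell in LM2 against Par (log2 fold change -2.18, adjusted p = 0.017 in edgeR) and was higher in BrM2 than in LM2 by 2.07 (adjusted p = 0.023). EPCAM had 7.17 ± 1.29, 4.82 ± 1.81 and 6.09 ± 1.51 CPM, and CDH1 had 3 to 37 counts. VIM, vimentin, a mesenchymal marker, rose from 725 ± 137 CPM in Par to 1540 ± 293 in LM2 and 1500 ± 291 in BrM2, by 1.09 (adjusted p = 0.02 in edgeR) and 1.05 (adjusted p = 0.016). The rest of the mesenchymal list, CD44, ZEB1 and CDH2, did not pass against Par. CD44 had log2 fold changes of 0.23 in LM2 and 0.30 in BrM2 (adjusted p = 0.67 and 0.48 in edgeR). For ZEB1 they were 0.32 and -0.29 (adjusted p = 0.89 and 0.88 in edgeR), and CDH2, under the filter, had 3 to 14 counts. Hepatocyte markers were near 0 in every library, with at most 4 counts of ALB, 5 of APOA1 and 1 of TTR. Of 6 leukocyte and macrophage markers, 2 passed the filter, and PTPRC, CD68 and LYZ had at most 6, 3 and 8 counts. The summed level of that list was 8.29 to 17.7 CPM in Par, 4.41 to 10.4 in LM2 and 2.34 to 4.87 in BrM2, mainly from CD14 and CSF1R, the latter of which fell in BrM2 vs Par (log2 fold change -2.76, adjusted p = 0.007 in edgeR). Of 5 fibroblast markers, 3 passed, and their sum was 55.5 to 73 CPM in Par, 45.1 to 70.8 in LM2 and 10.7 to 21.8 in BrM2, with at most 2 counts of DCN. The members of that list moved in different directions. COL1A1 rose from 6.84 ± 1.74 CPM in Par to 43.5 ± 9.89 in LM2 (log2 fold change 2.67, adjusted p = 0.0026 in edgeR) and had 7.68 ± 3.35 in BrM2 (0.16, adjusted p = 0.86). COL1A2 averaged 26.8 CPM in Par, 5.55 in LM2 and 0.0147 in BrM2, and fell in both (adjusted p = 0.0019 and 2.5e-05 in edgeR). PDGFRB averaged 28.9, 6.06 and 8.06 CPM, with log2 fold changes of -2.26 in LM2 and -1.85 in BrM2 against Par (adjusted p = 0.0067 and 0.012 in edgeR). LUM, under the filter, had 19, 44 and 42 counts in Par, 2, 3 and 4 in LM2 and 0 in all BrM2 libraries, and was called lower in both (adjusted p = 5.1e-05 and 3.5e-07 in edgeR without a filter). Of 3 endothelial markers 1 passed, with sums of 3.1 to 7.39, 2.45 to 2.93 and 3.35 to 4.12 CPM. The fibroblast sum was thus lowest in BrM2 without overlap, as were C3 and CFB, while the leukocyte sums of LM2 and BrM2 overlapped. In BrM2 vs Par, CD14, CD68, LYZ and CSF1R had log2 fold changes below 0. ITGAM and PTPRC had 2.58 and 0.69 (adjusted p = 0.29 and 0.79 in edgeR without a filter). The part of these markers in the results was not tested.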

How the data were processed

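RNA of the parental MDA-MB-231 line and its LM2 and BrM2 sub-populations, 9 libraries with 3 for each line, was sequenced by the authors from stranded mRNA libraries and aligned with STAR (version 2.7.0 in the submitters' processing notes, which also name CASAVA 1.8.2 and hg38 and hg19), and the authors deposited whole-number counts per gene without normalization. The counted strand is not given in the sources used here. A second table holds the authors' DESeq2 comparisons (log2 fold changes and adjusted p-values) and was not used. Samples were grouped by the cell line in the labels. Members were matched by gene symbol, and the members and gene lists were chosen with earlier results of these data known.

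The table has 58887 rows, of which 3 repeated identifiers with the same counts were kept once. A filter written after HTSFilter tried 100 thresholds from 1 to 200 (loess span 0.3) and kept the 13055 genes with a largest normalized count above 47.15. A gene could thus pass through only the line where it was high, as CSMD1 did through BrM2 and CFP, SAA2 and PIGZ through Par. Tests used edgeR 4.0.16 (TMM, 2-sided quasi-likelihood test, the 3 lines as groups, Benjamini-Hochberg adjustment, threshold 0.05). Members under the filter were tested in the same fit on the 34056 genes with a count, a choice made after seeing the data. The floor was 3 counts over the 3 libraries of a line, and counting intervals (95%) cover counting error only. Lists are described by counts and medians, without a set test.

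Same-numbered libraries of different lines had correlated deviations from the line means (0.23 to 0.90 in all 9 pairs). The pairing comes from the data, since the labels give a number alone, and the block with the replicate number followed from it. The common dispersion was 0.11 without and 0.0207 with the block.

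All 9 members are named. Of each gene list, the text names up to 4 called genes with the largest changes and the 2 with the highest CPM, and for members past the filter the 2 most correlated genes and the nearest tested genes. Others are said to be chosen after their values were seen. By this rule 1 further gene would be named, and it is not reported here. Marker lists of cell types are described apart from it. Alternatives were RLE scaling, DESeq2 1.42.0, the block, the libraries of the compared lines alone, no filter, edgeR's filterByExpr, and leaving out each library or replicate number. Exon lengths and shared 50-base stretches came from GENCODE v44 on GRCh37, and positions and promoters from RefSeq (GRCh38.p14). The scripts were tested on simulated data without a replicate effect and with less spread than the fit without the block. That simulation therefore does not show how the test behaves under the replicate effect and spread of these data. R 4.3.3, limma 3.58.1, Python 3.11.15, numpy 2.4.6 and pandas 2.3.3 were used.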

Additional observations from a re-analysis of the deposited data

How the results depend on the processing

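Of 460 recomputed log2 fold changes of the 9 genes, 420 kept their direction and their side of the threshold, 19 gained the threshold, 13 lost it and 8 changed sign. With the replicate block, 4510, 5577 and 4896 genes were called in LM2 vs Par, BrM2 vs Par and BrM2 vs LM2, against 1134, 1733 and 1057 without it, and 1, 3 and 3 of the members past the filter, against 0, 1 and 0. Besides the calls given for C3, C1S, CD46, CD55 and CD59, the block changed no call of a member. DESeq2 gave 1893 genes and 1 member for LM2 vs Par, and 1824 genes and 2 members for BrM2 vs LM2. The libraries of BrM2 and LM2 alone gave 598 genes. Without the filter 3 members were called in BrM2 vs Par and 2 in BrM2 vs LM2, and with filterByExpr 3 and 1, from more genes tested. Leaving out libraries gave 70 to 4327, 159 to 5274 and 53 to 4257 genes in the 3 comparisons, lowest without replicate 2 and highest without replicate 1 of all lines, and 0 to 2, 0 to 3 and 0 to 3 members. The cause was not tested. Over all alternatives, the list of cascade components had 0 to 3, 1 to 6 and 0 to 2 calls, and that of acute-phase proteins 0 to 4, 1 to 3 and 0 to 4. The changes of sign were all in differences that had not passed. In LM2 vs Par, C1R ranged from -0.33 to 0.39 with libraries left out, and became -0.03 with the block, -0.07 without Par replicate 2, -0.33 without LM2 replicate 1, -0.30 without replicate 1 and -0.04 without replicate 2, and C3 became 0.11 without replicate 3 (-0.71 to 0.11). CD59 became 0.01 in BrM2 vs Par without replicate 3 (-0.22 to 0.01). LCN2 in BrM2 vs LM2, with 1 and 3 counts, became 0.33 without replicate 2 (-3.04 to 0.33). Without Par replicate 3 or replicate 3 of all lines, SERPING1 was at 0 in Par and LM2 and gave no value in LM2 vs Par. RLE scaling shifted the median of all genes by less than 0.1 and moved no call of a member. Depth limits C1S, CFB, SERPING1 and LCN2, which had at most 35 counts in a library.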
